A study of Homo sapiens with 4 samples.

Results

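Aminoacyl-tRNA synthetases are the enzymes that join each amino acid to its tRNA. The set described here holds 38 genes: 19 for cytosolic enzymes or their subunits, 16 for mitochondrial enzymes, whose symbols end in 2, and 3 for the scaffold proteins AIMP1, AIMP2 and EEF1E1 that hold several cytosolic enzymes together. Members were found by gene symbol in the platform annotation, by a rule that uses no measured value, although the set was proposed with earlier results of these data known. The annotation gave 40 probes for 35 of the genes. Of these, 36 probes and 34 genes passed the filter, which asked for detection above background on at least 2 of the 4 arrays, out of 12197 genes that passed in all. Each of the 34 genes was detected on all 4 arrays. CARS1, AIMP2 and EEF1E1 were not analysed here, and the 1 probe of AIMP1 was not above background on any array, so no scaffold protein was tested.

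The cells were labelled as H358, an established human lung adenocarcinoma line. According to the labels, 1 group received a scrambled control shRNA and the other an shRNA against ADAR (titled ADAR B), ADAR being the enzyme that changes adenosine to inosine in double-stranded RNA, and each group was profiled on 2 Illumina BeadChip arrays. No other treatment, no time after transfection and no clone or pool of cells was stated in the sources used here. The labels call the 2 samples of a group biological replicates without saying whether separate cultures were used, so the p-values measure the spread between these samples only.

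In the cytosol nearly every amino acid has a synthetase of its own, and a group of these enzymes is bound in a multi-synthetase complex. Mitochondria translate their own transcripts with a largely separate set of synthetases that are encoded in the nucleus, while GARS1 and KARS1 each supply both compartments. The enzymes fall into 2 structural classes, I and II, by the fold of the catalytic domain. When amino acids run short, uncharged tRNA activates the kinase GCN2, which phosphorylates eIF2. Translation of the transcription factor ATF4 then increases, and ATF4 is known to induce many cytosolic synthetase genes.

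The groups differed over a large part of the transcriptome. At a Benjamini-Hochberg adjusted p under 0.05 in limma, 57.8% of the genes tested were called, 25.5% as higher and 32.2% as lower in ADAR shRNA cells. Upper quartiles of raw intensity were 143 and 115 under the scrambled shRNA, and 94.5 and 92.1 under the ADAR shRNA, so directions depended in part on how arrays were scaled. ADAR itself read 10.89 and 11.23 (normalized log2 intensity) under the scrambled shRNA, and 9.88 and 10.19 under the ADAR shRNA, a fall of 1.03 (SE 0.21, adjusted p = 0.00292). The ADAR difference was -0.61 with the mean of its probes (adjusted p = 0.0224), -1.59 when arrays were median scaled and -1.72 when they were not normalized to each other. Markers of the labelled cell type also differed: of 8 epithelial and lung markers 7 were tested, 6 fell and 0 rose, and EPCAM, CDH1 and NKX2-1 were not above background on either ADAR shRNA array. Their summed linear level was 20305 and 24460 under the scrambled shRNA against 2958 and 2662 under the ADAR shRNA. Of 4 haematopoietic markers 2 were tested, CD68 and CD14, and both rose, with sums of 627 and 750 against 2502 and 3231, while the defining markers PTPRC and CD3E were not detected on any array. For 5 fibroblast and endothelial markers, of which 3 were tested, PDGFRB rose (1.18, adjusted p = 0.000763) and COL1A1, not above background under the ADAR shRNA, fell at least 1.61-fold. The sums were 104 and 115 against 104 and 117, and VWF was not detected. The arrays of a group correlated at 0.984 and 0.987 over genes and those of different groups at 0.765 to 0.795. A difference in the identity or state of the cells beyond the knockdown cannot be told apart from the shRNA in this design, and this holds for every difference reported here. The part these marker differences play in the synthetase results was not tested, and in bulk RNA fewer cells of a type and less RNA per cell cannot be told apart.

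Of the 34 genes tested, 10 rose, 7 fell and 17 did not pass, so 50% were called against 57.8% of all genes. Among 18 cytosolic genes 6 rose (33.3%, against 25.5% of all genes) and 3 fell (16.7%, against 32.2%). Among 16 mitochondrial genes 4 rose and 4 fell, or 25% in each direction. The median log2 difference, ADAR shRNA minus scrambled, was 0.03 for the cytosolic genes, -0.08 for the mitochondrial genes and -0.08 for all genes tested. Both compartments thus held genes called in each direction.

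The rises among cytosolic enzymes were led by WARS1, the tryptophanyl-tRNA synthetase, a gene also known as a target of interferon gamma. Its brighter probe read 9.27 and 9.01 (normalized log2 intensity) under the scrambled shRNA, and 12.16 and 11.81 under the ADAR shRNA. Both ADAR shRNA arrays lay far above both scrambled arrays, and the rise was 2.84 (SE 0.21, adjusted p = 6.70e-06), or 7.17-fold. Before normalization it read 969 and 653 against 4099 and 3055. A second WARS1 probe read 8.21 and 7.87 against 11.54 and 11.16, a rise of 3.31 (SE 0.22) in the fit over all probes. WARS1 was the one risen gene of the set that also passed under all 14 alternative settings, including median scaling, where it rose by 2.35.

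**Figure D1:**
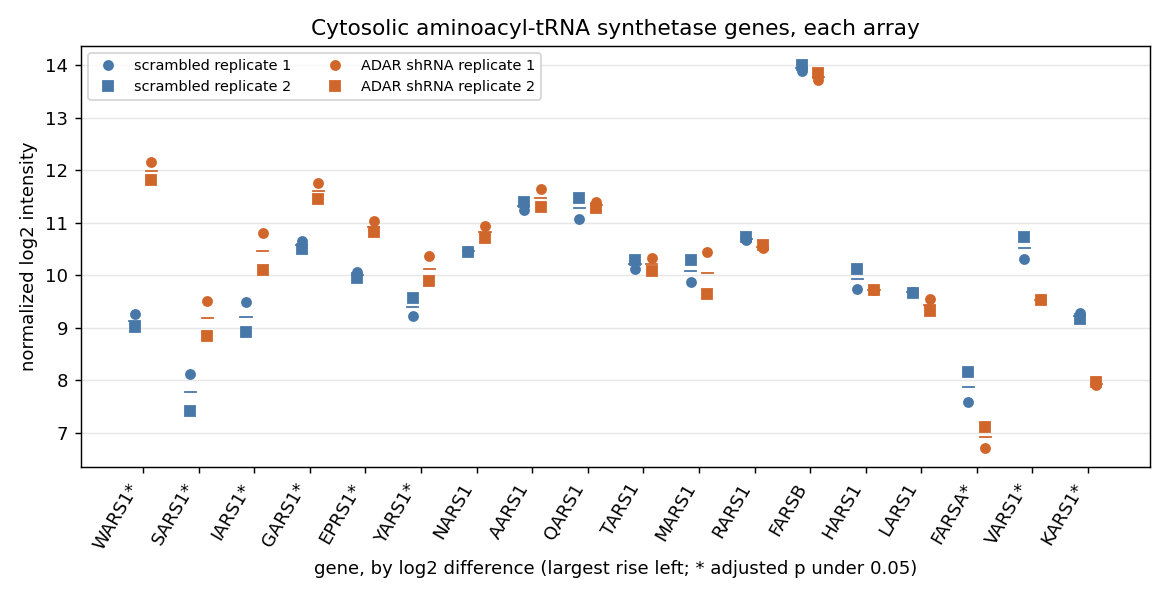
Normalized log2 intensity (vertical axis) of 18 cytosolic synthetase genes on each of the 4 arrays, in order of log2 difference; circles are replicate 1, squares replicate 2, short bars group means, and an asterisk marks an adjusted p under 0.05. Each gene has its own probe, so groups compare within a gene and not between genes. WARS1 stands apart with a rise of 2.84, and KARS1, VARS1 and FARSA at the right are lower on both ADAR shRNA arrays.

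Smaller rises were seen for 5 other cytosolic genes. SARS1, the seryl-tRNA synthetase, read 8.13 and 7.43 under the scrambled shRNA, and 9.51 and 8.86 under the ADAR shRNA, a rise of 1.40 (SE 0.29, adjusted p = 0.003). IARS1, the isoleucyl enzyme, read 9.50 and 8.93 against 10.81 and 10.11, a rise of 1.24 (SE 0.28, adjusted p = 0.00472). In both genes replicate 1 was the higher array of its group and the groups did not overlap. With 2 arrays per group such separation also occurred in genes that did not pass, such as FARSB and SARS2. Its share over all genes is not given here, so separation is stated only as a description. A dimmer IARS1 probe, detected on 1 array of each group, differed by 0.15 (SE 0.24) and did not pass.

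GARS1, which charges glycine tRNA in both compartments, read 10.66 and 10.50 under the scrambled shRNA against 11.77 and 11.46 under the ADAR shRNA, a rise of 1.03 (SE 0.20, adjusted p = 0.00197). EPRS1, a single protein that charges glutamate and proline tRNA within the multi-synthetase complex, read 10.06 and 9.96 against 11.03 and 10.83, a rise of 0.92 (SE 0.19, adjusted p = 0.0028). YARS1, the tyrosyl enzyme, read 9.24 and 9.56 against 10.36 and 9.89, a rise of 0.73 (SE 0.23, adjusted p = 0.0217). The arrays of the 2 groups were separate for all 3 genes, by the smallest margin for YARS1. YARS1 lost its call when scrambled replicate 1 was left out (0.58, adjusted p = 0.113). The same held when ADAR shRNA replicate 1 was left out (0.48, adjusted p = 0.172) and with no filter on detection. With median scaling SARS1, IARS1, GARS1, EPRS1 and YARS1 had differences of 0.72, 0.60, 0.54, 0.35 and 0.07 and none passed. With the authors' values SARS1, IARS1 and YARS1 did not pass either (adjusted p = 0.0533, 0.062 and 0.0812).

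Of the cytosolic genes 3 fell. KARS1, the lysyl enzyme of both compartments and a member of the complex, read 9.28 and 9.16 under the scrambled shRNA, and 7.91 and 7.97 under the ADAR shRNA, and fell by 1.28 (SE 0.18, adjusted p = 0.000348). VARS1, the valyl enzyme, read 10.32 and 10.74 against 9.55 and 9.53 and fell by 0.99 (SE 0.21, adjusted p = 0.00305). FARSA, the alpha subunit of the phenylalanyl enzyme, read 7.59 and 8.15 against 6.71 and 7.12 and fell by 0.96 (SE 0.24, adjusted p = 0.00869). The groups did not overlap in any of these genes, although the FARSA arrays of a group lay further apart. FARSA did not pass without scrambled replicate 2 (-0.66, adjusted p = 0.0718), without ADAR shRNA replicate 1 (-0.77, adjusted p = 0.0541) or with the authors' values (adjusted p = 0.0617). FARSB, the beta subunit that pairs with FARSA, read 13.90 and 14.01 against 13.72 and 13.85, a difference of -0.17 (SE 0.18, adjusted p = 0.468).

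The other 8 cytosolic genes did not pass either, with log2 differences from -0.24 for LARS1, the leucyl enzyme, to 0.37 for NARS1, the asparaginyl enzyme. NARS1 read 10.46 and 10.45 under the scrambled shRNA against 10.93 and 10.71 under the ADAR shRNA (difference 0.37, SE 0.19, adjusted p = 0.124), so the groups were separate but the difference was under the threshold. MARS1, the methionyl enzyme, read 9.88 and 10.30 against 10.45 and 9.65. Its ADAR shRNA arrays lay on either side of both scrambled arrays (difference -0.04, SE 0.28). AARS1, TARS1 and QARS1, the alanyl, threonyl and glutaminyl enzymes, also overlapped between groups, with differences of 0.15, 0.00099 and 0.06. HARS1 and RARS1, the histidyl and arginyl enzymes, differed by -0.21 and -0.15.

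The cytosolic genes were next split by a list of known ATF4 targets. That list held 12 of the cytosolic genes (AARS1, CARS1, EPRS1, GARS1, IARS1, LARS1, MARS1, NARS1, SARS1, TARS1, WARS1 and YARS1). Of the 11 tested, 6 rose (54.5%, against 25.5% of all genes) and 0 fell, and their median log2 difference was 0.73. Of the 7 cytosolic genes off the list (FARSA, FARSB, HARS1, KARS1, QARS1, RARS1 and VARS1), 0 rose and 3 fell (42.9%, against 32.2% of all genes), with a median of -0.21. Leaving out each array in turn gave 5 or 6 rises and 0 falls on the list, but its median was 0.48 without ADAR shRNA replicate 1. The median off the list was -0.42 when scrambled replicate 1 was left out and -0.12 when scrambled replicate 2 was. Under median scaling 1 gene on the list rose and 2 fell, against 0 and 5 off the list. The medians of 0.07 and -0.87 lay on either side of the -0.54 of all 12197 genes. Of those, 1730 rose and 6029 fell. The list was drawn from general knowledge with earlier results of these data known, so the split is no independent evidence of direction. The difference between the lists was not tested. Of the 7 cytosolic enzymes bound in the complex 2 rose and 1 fell, and of the 11 outside it 4 rose and 2 fell.

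**Figure D2:**
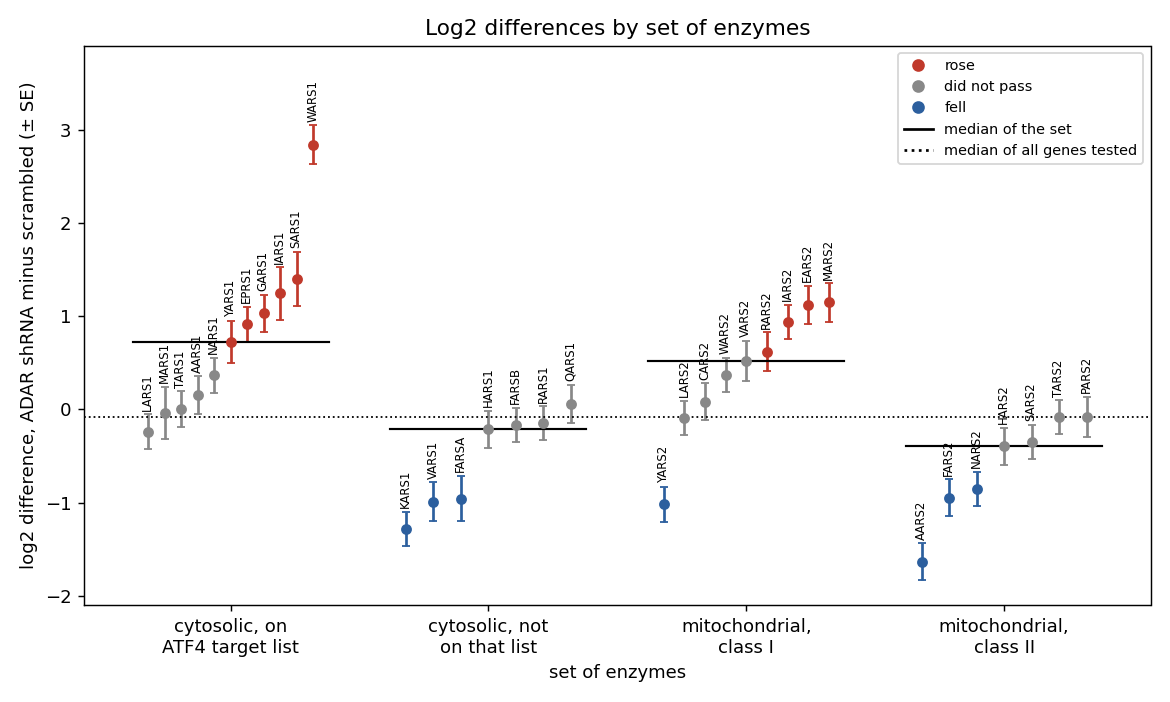
Log2 difference (vertical axis, ADAR shRNA minus scrambled, bars ± SE from limma) for each tested enzyme in 4 sets: cytosolic genes on and off the list of ATF4 targets, and mitochondrial genes of class I and class II. Solid lines are set medians of 0.73, -0.21, 0.52 and -0.40, the dotted line is the -0.08 median of all genes, red points rose and blue points fell.

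The promoters of these genes were searched for the letters TGATGNAA on both strands (TTNCATCA when read on the other strand), the core of the element that ATF4 binds with its C/EBP partners. The search covered the RefSeq windows from 250 bases before to 50 bases after each gene's start (GRCh38.p14), and was run on 33 of the 38 genes, without AARS2, LARS1, VARS1, VARS2 and YARS1. A gene was counted if any of its windows held a match. Of 10 genes of the ATF4 list with a window, 7 held a match (70%). The counts elsewhere were 0 of 6 cytosolic genes off the list, 1 of 14 mitochondrial genes and 0 of 3 scaffold genes. Of all 27305 genes with a window, 4.46% held a match. The list holds known ATF4 targets, so a high share of this element on it may be partly built in. It is no independent evidence. Counted by window, the share on the list was 7 of 15 (46.7%), against 3.62% of all 35116 windows. In 6 of the 7 genes the match was the stricter TGATGCAA or its reverse complement TTGCATCA. Those letters were chosen after the matches were seen, and 1.08% of all genes held them. The windows below show each match in capitals with its flanks, 5′ to 3′ on the gene's strand. They are shown so that each match can be read with its flanks, and were selected for holding the TGATGNAA pattern. Likeness of the flanks was not compared. GARS1 (TTTCATCA) and YARS2 (TGATGGAA) carry another base at the N than the others.
AARS1, minus strand, from chr16:70289457-70289756: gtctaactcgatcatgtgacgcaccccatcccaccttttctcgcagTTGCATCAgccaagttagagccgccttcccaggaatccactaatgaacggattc
CARS1, minus strand, from chr11:3057374-3057673: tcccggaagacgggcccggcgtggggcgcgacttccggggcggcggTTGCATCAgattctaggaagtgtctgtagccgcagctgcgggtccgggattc
GARS1, plus strand, from chr7:30594628-30594927: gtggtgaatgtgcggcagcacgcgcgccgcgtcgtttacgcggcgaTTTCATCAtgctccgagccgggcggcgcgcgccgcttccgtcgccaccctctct
IARS1, minus strand, from chr9:92293648-92293947: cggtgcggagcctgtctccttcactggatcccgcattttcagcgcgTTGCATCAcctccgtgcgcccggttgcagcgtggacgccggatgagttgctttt
MARS1, plus strand, from chr12:57487818-57488117: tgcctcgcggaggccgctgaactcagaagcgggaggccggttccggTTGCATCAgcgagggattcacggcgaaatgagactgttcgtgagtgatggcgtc
NARS1, minus strand, from chr18:57621787-57622086: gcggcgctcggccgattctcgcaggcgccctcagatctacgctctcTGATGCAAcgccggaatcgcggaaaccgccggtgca
TARS1, plus strand, from chr5:33440715-33441014: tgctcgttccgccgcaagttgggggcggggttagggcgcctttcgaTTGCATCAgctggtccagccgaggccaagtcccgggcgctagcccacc
YARS2, minus strand, from chr12:32755848-32756147: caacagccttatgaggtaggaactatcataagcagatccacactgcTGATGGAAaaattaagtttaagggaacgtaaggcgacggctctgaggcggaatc

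Matches and calls were then set side by side. Of the 6 tested cytosolic genes with a match, GARS1 and IARS1 rose while AARS1, MARS1, NARS1 and TARS1 did not pass. WARS1, SARS1 and EPRS1 rose and held none of these letters in the windows searched. YARS2, the mitochondrial tyrosyl enzyme and the one mitochondrial gene with a match, fell. The letters describe the windows and do not show that a factor was bound in these cells.

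Among mitochondrial enzymes, which charge the tRNAs encoded by the mitochondrial genome, 4 rose. MARS2, the methionyl enzyme, read 7.27 and 6.85 under the scrambled shRNA, and 8.20 and 8.21 under the ADAR shRNA, a rise of 1.15 (SE 0.21, adjusted p = 0.00135). EARS2, the glutamyl enzyme, which also loads the precursor of mitochondrial glutaminyl-tRNA, read 7.34 and 7.08 against 8.18 and 8.48, a rise of 1.12 (SE 0.20, adjusted p = 0.00146). IARS2, the isoleucyl enzyme, read 10.42 and 10.35 against 11.34 and 11.30, a rise of 0.94 (SE 0.18, adjusted p = 0.00196). The groups were clearly separate in all 3. RARS2, the arginyl enzyme, read 7.36 and 7.10 against 7.68 and 8.02 and rose by 0.62 (SE 0.21, adjusted p = 0.029), but differed by -0.021 under median scaling. RARS2 also lost its call when scrambled replicate 2 was left out (0.48, adjusted p = 0.153), when ADAR shRNA replicate 2 was left out (0.46, adjusted p = 0.186) and with the authors' values (adjusted p = 0.0656). Under median scaling MARS2, EARS2 and IARS2 differed by 0.51, 0.47 and 0.43 and did not pass.

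A further 4 mitochondrial genes fell. AARS2, the alanyl enzyme, read 8.02 and 8.27 under the scrambled shRNA against 6.39 and 6.63 under the ADAR shRNA and fell by 1.64 (SE 0.20, adjusted p = 0.000134), the largest fall of the 34 genes. YARS2 read 9.33 and 9.14 against 8.16 and 8.27 and fell by 1.02 (SE 0.19, adjusted p = 0.00155). FARS2, the phenylalanyl enzyme, read 7.75 and 7.53 against 6.55 and 6.83 and fell by 0.95 (SE 0.20, adjusted p = 0.00325). NARS2, the asparaginyl enzyme, read 8.02 on both scrambled arrays against 7.10 and 7.24 and fell by 0.85 (SE 0.18, adjusted p = 0.00361). All 4 genes were lower on both ADAR shRNA arrays than on either scrambled array. With KARS1 and VARS1 they passed under all 14 alternatives, and their differences under median scaling were larger, at -2.24, -1.71, -1.55 and -1.49.

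**Figure D3:**
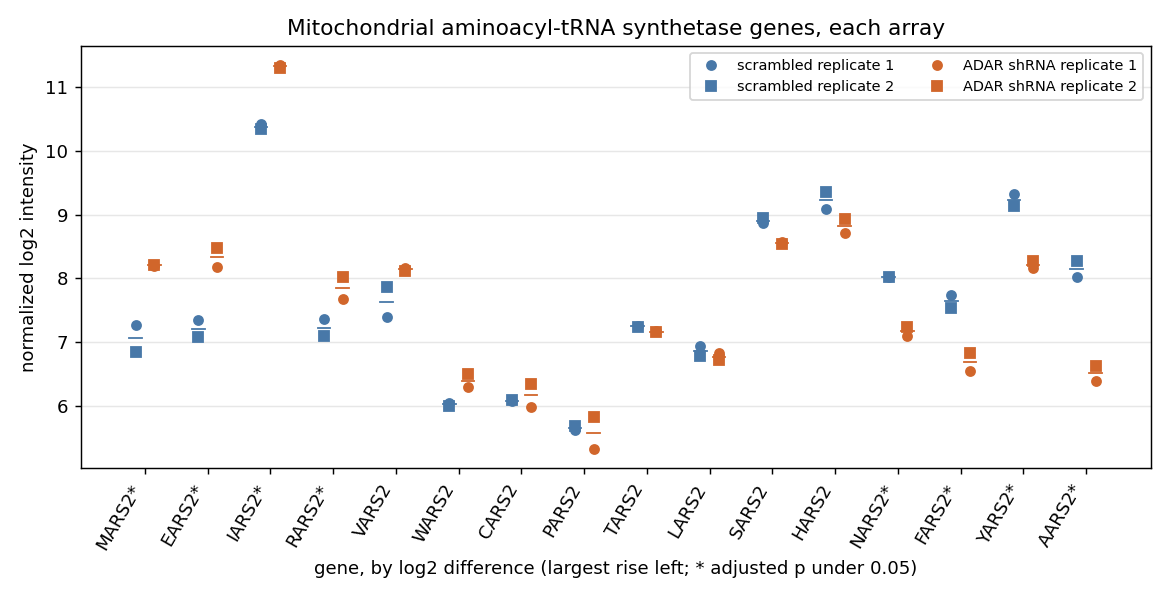
Normalized log2 intensity (vertical axis) of 16 mitochondrial synthetase genes on each of the 4 arrays, in order of log2 difference; circles are replicate 1, squares replicate 2, short bars group means, and an asterisk marks an adjusted p under 0.05. MARS2, EARS2, IARS2 and RARS2 at the left are higher on both ADAR shRNA arrays, and NARS2, FARS2, YARS2 and AARS2 at the right are lower on both.

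The remaining 8 mitochondrial genes did not pass. VARS2, the valyl enzyme, read 7.39 and 7.86 under the scrambled shRNA, and 8.17 and 8.12 under the ADAR shRNA (difference 0.52, SE 0.21, adjusted p = 0.0621). Without scrambled replicate 1 the VARS2 difference was 0.28 (adjusted p = 0.32). It passed without scrambled replicate 2 (0.75, adjusted p = 0.0303), with an offset of 50 (0.45), with no background correction (0.42), with robust, intensity-dependent variance (adjusted p = 0.0472) and with the replicate block (adjusted p = 0.0368), while median scaling gave -0.15. WARS2 and CARS2, the tryptophanyl and cysteinyl enzymes, differed by 0.37 and 0.08, and HARS2 and SARS2, the histidyl and seryl enzymes, by -0.40 and -0.35. LARS2, TARS2 and PARS2, the leucyl, threonyl and prolyl enzymes, differed by -0.09, -0.08 and -0.08 and lay close to the -0.08 median of all genes.

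The mitochondrial genes were also split by structural class. Of 9 class I enzymes 4 rose (44.4%, against 25.5% of all genes) and 1 fell (11.1%, against 32.2%), with a median of 0.52 and a range from -1.02 to 1.15. Of 7 class II enzymes 0 rose and 3 fell (42.9%, against 32.2%), with a median of -0.40. All 7 log2 differences were below 0, but those of PARS2 and TARS2 lay at the median of all genes, and PARS2 was at 0.18 without ADAR shRNA replicate 1. The array medians of the class I genes were 7.34 and 7.08 under the scrambled shRNA against 8.16 and 8.12 under the ADAR shRNA, while those of class II were 8.02 and 8.02 against 7.10 and 7.16. Under median scaling the class I median turned to -0.11, with 0 rises and 2 falls. Class II lay at -1.11 with 0 rises and 6 falls. The median of all 12197 genes was -0.54 there, with 1730 rises and 6029 falls. Among the cytosolic genes, 3 of 8 in class I rose and 1 fell, and 2 of 9 in class II rose and 2 fell, with EPRS1, which joins an enzyme of each class, counted in neither. The difference between classes was not tested, and the class division was examined among several others.

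The compartments were then set against each other by their medians, with no test, since genes are not replicates. The median of the cytosolic differences exceeded that of the mitochondrial ones by 0.11, and this value ranged from -0.10 to 0.31 when each array was left out in turn. It was below 0 without scrambled replicate 1 (-0.075) and without ADAR shRNA replicate 1 (-0.10). Cytosolic array medians were 9.97 and 10.21 under the scrambled shRNA, and 10.48 and 10.10 under the ADAR shRNA, so the groups overlapped. Mitochondrial array medians were 7.37 and 7.38 against 7.43 and 7.63. Without GARS1 and KARS1, which serve both compartments, 5 of 16 cytosolic genes rose and 2 fell, and the median stayed at 0.03.

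Enzymes for the same amino acid were compared in pairs, with no test of the gap. Among 14 pairs of tested genes, covering 13 amino acids, the cytosolic gene had the higher log2 difference in 9, and the cytosolic difference minus the mitochondrial one ran from -1.51 to 2.47 with a median of 0.24. Tryptophan gave the widest gap, with 2.84 for WARS1 and 0.37 for WARS2. Alanine, serine and tyrosine followed, with 0.15 for AARS1 against -1.64 for AARS2, 1.40 for SARS1 against -0.35 for SARS2, and 0.73 for YARS1 against -1.02 for YARS2. Tyrosine was the one pair in which the cytosolic gene rose and the mitochondrial gene fell. Valine and methionine ran the other way, with -0.99 for VARS1 against 0.52 for VARS2, and -0.04 for MARS1 against 1.15 for MARS2. Isoleucine was the one pair in which both genes rose, and in phenylalanine FARSA and FARS2 both fell, by 0.96 and 0.95.

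**Figure D4:**
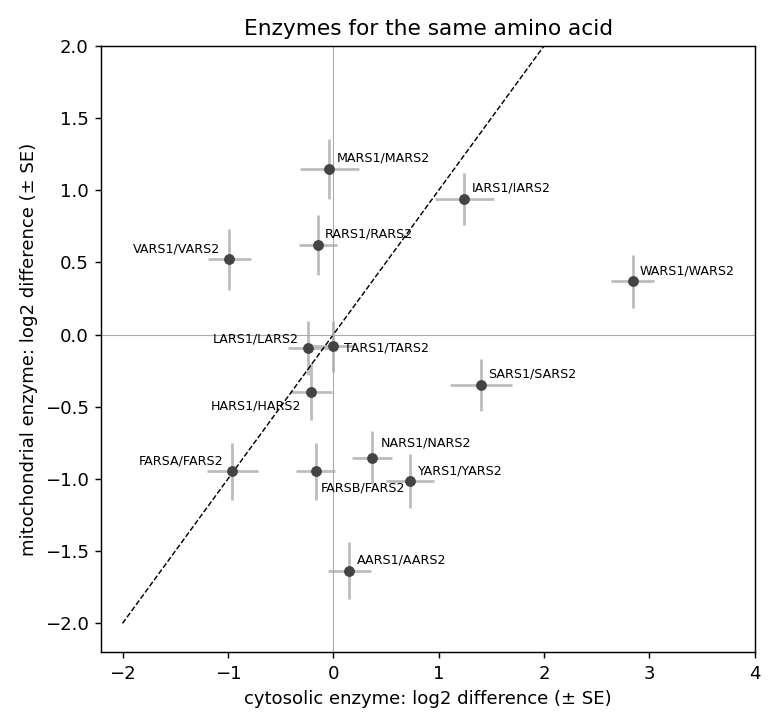
Log2 difference (ADAR shRNA minus scrambled, bars ± SE) of the cytosolic enzyme (horizontal axis) and of the mitochondrial enzyme for the same amino acid (vertical axis) in 14 pairs; FARSA and FARSB share FARS2. The dashed line marks equal differences: WARS1/WARS2 lies 2.47 to its cytosolic side and VARS1/VARS2 1.51 to its mitochondrial side.

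The histidine pair is a special case of gene arrangement. HARS1 and HARS2 lie head to head on chromosome 5, and their RefSeq promoter windows share 184 bases (GRCh38.p14, chr5:140691321-140691504). The HARS2 window is shown because both genes start from it in opposite directions, with the shared bases in capitals.
HARS2, plus strand, chr5:140691205-140691504: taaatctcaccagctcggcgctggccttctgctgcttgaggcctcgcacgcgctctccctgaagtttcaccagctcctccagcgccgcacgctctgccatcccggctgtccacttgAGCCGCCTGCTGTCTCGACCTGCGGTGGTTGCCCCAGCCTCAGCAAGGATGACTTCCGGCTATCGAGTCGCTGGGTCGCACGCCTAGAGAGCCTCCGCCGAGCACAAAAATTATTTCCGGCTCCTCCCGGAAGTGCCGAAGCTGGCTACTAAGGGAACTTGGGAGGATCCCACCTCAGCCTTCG
HARS1 read 9.75 and 10.13 under the scrambled shRNA against 9.72 and 9.73 under the ADAR shRNA (difference -0.21, SE 0.20, adjusted p = 0.389), and HARS2 read 9.09 and 9.36 against 8.72 and 8.94 (difference -0.40, SE 0.20, adjusted p = 0.117). Both genes were lower on the ADAR shRNA arrays without passing. Under median scaling both fell, by 0.87 and by 1.11, but 6029 of all 12197 genes fell there and the median of all genes was -0.54. Relative to that median, HARS1 lay at -0.32 and HARS2 at -0.57. The values after quantile normalization were -0.14 and -0.32.

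Scaling changed more of the calls than leaving out an array did. Median scaling, which sets the arrays' medians over all probes equal, moved the median of all genes tested from -0.08 to -0.54. Of 47322 probes, 18722 to 20901 were detected per array, so the medians set equal lay among probes not above background. With this scaling 1730 of the 12197 genes rose and 6029 fell. Of the 10 risen genes 1 kept its call under median scaling, and all 7 fallen genes kept theirs. Leaving out each array in turn kept 8 of the 10 rises and 6 of the 7 falls in every case. Relative to the median of all genes, WARS1, SARS1, IARS1, GARS1 and EPRS1 lay at 2.92, 1.48, 1.32, 1.11 and 0.99 in the quantile-normalized data and at 2.89, 1.27, 1.14, 1.09 and 0.89 under median scaling. The corresponding values for MARS2 and IARS2 were 1.23 and 1.02 against 1.06 and 0.97.

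**Figure D5:**
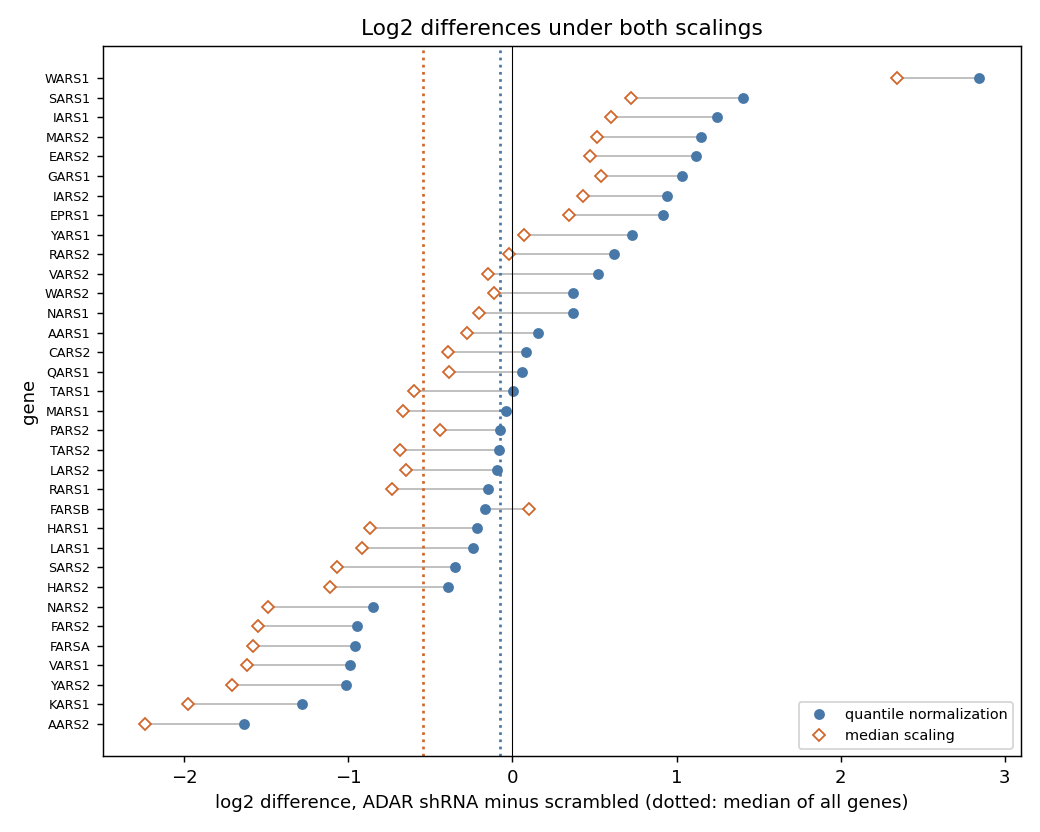
Log2 difference (horizontal axis, ADAR shRNA minus scrambled) of the 34 tested genes after quantile normalization (filled circles) and after median scaling (open diamonds); dotted lines are the medians of all genes, -0.08 and -0.54. Nearly every gene shifts left with the overall median, WARS1 stays well to the right of it, and FARSB, read near the top of the intensity range, is the gene that shifts right.

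In the fit over all 21263 probes that passed the filter, 50.6% were called, 24.2% as higher and 26.3% as lower. Of the 36 probes of the set 11 rose and 7 fell, a share of 50%. WARS1 and IARS1 had a pair of tested probes each, which matched in call for WARS1 and not for IARS1. Second probes of FARSB and VARS1 were not above background on any array, and one of MARS2 was detected on 1 ADAR shRNA array.

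Genes that act beside the synthetases moved in several ways. Of 17 tested genes of the integrated stress response, which links uncharged tRNA to ATF4, 10 rose (58.8%, against 25.5% of all genes) and 1 fell, with a median log2 difference of 0.62. DDIT3, the stress transcription factor CHOP, rose by 2.85 (SE 0.21, adjusted p = 6.55e-06), from 7.13 and 7.05 to 9.73 and 10.15. TRIB3, a pseudokinase induced by ATF4, rose by 2.69 (SE 0.24, adjusted p = 2.02e-05), from 8.37 and 8.42 to 11.41 and 10.76. EIF2AK2, the eIF2 kinase that responds to double-stranded RNA, fell by 0.99 (SE 0.20, adjusted p = 0.00243). ATF4 itself read 12.14 and 12.40 against 12.87 and 12.74, a rise of 0.54 (SE 0.19, adjusted p = 0.0388), and EIF2AK4, the gene of GCN2, differed by 0.48 (SE 0.24, adjusted p = 0.12). ATF4 lost its call on leaving out scrambled replicate 1 (adjusted p = 0.155), ADAR shRNA replicate 1 (0.189) or ADAR shRNA replicate 2 (0.102), with the authors' values and under median scaling. EIF2AK4 passed on leaving out scrambled replicate 2 (adjusted p = 0.04) and with the replicate block. The list was chosen with its rise in these data known, so it is no independent evidence of direction. Its rises numbered 6 without scrambled replicate 1 and 6 with the authors' values, and under median scaling 6 genes rose and 4 fell. Of all 12197 genes, 1730 rose and 6029 fell under that scaling. One of the 10 risen genes of the list, CHAC1, was detected on the ADAR shRNA arrays alone. It thus passed the filter through the group where it was high.

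Translation factors use the charged tRNA at the ribosome. Of 7 cytosolic elongation factor genes 3 rose (42.9%, against 25.5% of all genes) and 1 fell (14.3%, against 32.2%), with a median of 0.50. The rises ranged from 1 without ADAR shRNA replicate 1 to 5 with the mean of all probes, where the median was 0.94. EEF2, which moves the ribosome along the transcript, rose by 1.01 (SE 0.18, adjusted p = 0.00141), and EEF1G, a subunit of the exchange factor complex in which VARS1 sits, rose by 0.94 (SE 0.29, adjusted p = 0.0201). EEF1D, another subunit of that complex, fell by 0.50 (SE 0.19, adjusted p = 0.0495). EEF1G lost its call on leaving out scrambled replicate 2 (adjusted p = 0.117) and on leaving out ADAR shRNA replicate 1 (0.0694), with no filter on detection, with the authors' values and under median scaling. EEF1D lost its call on leaving out scrambled replicate 1 (adjusted p = 0.196), ADAR shRNA replicate 1 (0.15) or ADAR shRNA replicate 2 (0.183), and with the authors' values. Of 8 mitochondrial translation factor genes 1 rose and 1 fell (12.5% in each direction, against 25.5% and 32.2% of all genes), with a median of 0.07. MTIF3, an initiation factor, rose by 0.84 (SE 0.19, adjusted p = 0.0049) and MTRF1, of the release factor family, fell by 0.59 (SE 0.21, adjusted p = 0.0353). MTIF3 did not pass under median scaling (0.17), and MTRF1 lost its call on leaving out scrambled replicate 1 (adjusted p = 0.0541), scrambled replicate 2 (0.169) or ADAR shRNA replicate 2 (0.226), with no background correction, with no filter on detection and with the authors' values.

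Among 9 tested genes that assist tRNA charging 1 rose (11.1%, against 25.5% of all genes) and 2 fell (22.2%, against 32.2%), with a median of -0.30. PSTK, a kinase of the selenocysteine pathway, fell by 0.77 (SE 0.19, adjusted p = 0.00688). GATB, a subunit of the amidotransferase that converts the product of EARS2 into mitochondrial glutaminyl-tRNA, fell by 0.68 (SE 0.18, adjusted p = 0.0116), while EARS2 itself rose. GATB lost its call on leaving out scrambled replicate 2 (adjusted p = 0.0642) and on leaving out ADAR shRNA replicate 1 (0.0686). The 1 rise was TARS3, a threonyl-tRNA synthetase outside the set, which was not above background on either scrambled array and so passed the filter through the group where it was high (at least 1.29-fold, adjusted p = 0.0485). Its signals before normalization were 70.4 and 59.4 against 68.7 and 65.7, and it lost its call on leaving out either scrambled array, with an offset of 50, with no background correction, with robust, intensity-dependent variance or with the authors' values. Under median scaling 0 of these genes rose and 5 fell, against 1730 and 6029 of all 12197 genes.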

How the data were processed

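RNA from 4 samples of H358 cells was measured on 1-colour Illumina HT-12 arrays. The authors deposited a scanner table for 47322 probes, giving linear intensity, bead count and bead error, per the file headers. The same deposited table holds a detection p-value for each probe on each array. The submitters' processing notes name GenomeStudio, with no version stated there. A second deposited table holds processed intensity values (column medians 8.05, 8.04, 8.02 and 8.03) that rank probes as the raw signal does; how it was normalized was not given, so it served as an alternative, as log2 after a floor of 16.

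Raw intensities were corrected with normexp from the detection p-values (offset 16), log2 transformed and then quantile normalized with limma 3.58.1 in R 4.3.3. Probes with a detection p under 0.05 on at least 2 arrays were kept, named by the platform annotation (30113 probes with 1 symbol, 8 with several, 17201 not listed and unnamed here; 30074 matched to GRCh38.p14 genes by Entrez identifier), and each gene took its brightest probe. Groups were compared with lmFit and eBayes (2 residual and 6.83 prior degrees of freedom), two-sided, with Benjamini-Hochberg adjustment over all genes tested, and called at adjusted p under 0.05. The fit was also run on simulated arrays with a single common spread and few changed genes. That run checks the code and does not bear on the calls or the scaling here. Each array was taken as its own sample, following the labels. Within a group 26.6% and 18.6% of probes differed beyond bead error, which does not tell separate cultures from repeat hybridizations. The small number of arrays limits precision. "At least" folds compare the detected group with the lowest detected value on each undetected array.

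The members and lists were chosen with earlier results of these data known, the ATF4 list from general knowledge. Named genes were all members and, per related list, up to 2 rises and 2 falls by log2 difference among called genes whose groups did not overlap; ATF4 and EIF2AK4 were added for their role, and EIF2AK2 is the single fall of its list. No slide identity was given, so no slide block was fitted. No set test was run.

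Alternatives were median scaling, no normalization between arrays, no background correction, an offset of 50, a detection p under 0.01 on all 4 arrays, no filter on detection, the mean of a gene's probes, the authors' values, a trend with robust variance, the replicate block, and each array left out in turn.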

Additional observations from a re-analysis of the deposited data

How the results depend on the processing

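Under 14 alternatives, the 6 rises and 3 falls of cytosolic genes and the 4 rises and 4 falls of mitochondrial genes depended mainly on scaling. Of all 12197 genes, 1730 rose and 6029 fell under median scaling, and 1375 and 6426 with no normalization between arrays. Median scaling gave 1 rise and 7 falls among 18 cytosolic genes, and 0 rises and 8 falls among 16 mitochondrial genes. With no normalization between arrays these were 1 and 9, and 0 and 8. On the ATF4 list they were 1 rise and 2 falls, and 1 and 3; off it, 5 and 6 falls. In mitochondrial class I there were 0 rises and 2 falls under both, and in class II 6 falls under both. The authors' values gave 3 cytosolic rises, all on the ATF4 list. Under median scaling 9 genes changed sign. Of these TARS1 (-0.60) and RARS2 (-0.021) were called under one of the settings, and AARS1, CARS2, FARSB, NARS1, QARS1, VARS2 and WARS2 under neither. With no normalization 9 changed sign, QARS1 (-0.52), TARS1 (-0.73), YARS1 (-0.062) and RARS2 (-0.155) among called genes, and AARS1, CARS2, NARS1, VARS2 and WARS2 besides. The median of all genes moved from -0.08 to -0.54 and -0.68 under these settings; relative to it, TARS1 lay at -0.05 and RARS2 at 0.52 under median scaling. The cause was not tested. The compartment difference of 0.11 was 0.21 under median scaling and also with no normalization. These settings differ by a constant per array, so their values for this difference are equal by construction.

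The replicate numbers were not shown to pair samples (1 correlation of deviations, 0.106). With the replicate block 6 cytosolic genes rose and 3 fell, and 5 mitochondrial genes rose and 4 fell, VARS2 being the added call (adjusted p = 0.0368). Of all 12197 genes, 3327 rose and 4161 fell with that block. On leaving out each array in turn, the ADAR difference ranged from -1.22 to -0.86. All 34 tested genes were detected on every array; dim genes such as PARS2 and CARS2, with raw signals of 70.6 to 136, lie closest to background.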
